A study of Danio rerio with 15 samples.

Results

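The cells described here were sorted *mpeg1*+ cells of zebrafish lacking working copies of both *csf1r* genes, the *csf1rDM* fish, compared between 2 juvenile ages. They were taken by their labels: 3 single fish at 33 days post-fertilization (33 dpf) and 3 single fish at 1.5 months post-fertilization (1.5 mpf), so 6 of the 15 fish of the series. By their labels, all *csf1rDM* fish carried *csf1ra* j4e1/j4e1 and *csf1rb* re01/re01 on a tg(mpeg-GFP) background. The 6 control fish set beside them, 3 at each age, were wildtype for both genes and carried the same reporter. The 3 *il34* mutant fish at 1.5 mpf entered only the filter on low counts, the scaling and the estimate of the variability between fish. The titles of the older samples say 5 months, whereas their stage label and the study's text give 1.5 mpf, which is used here. Fish were cut up whole and digested before sorting, so each library pools GFP+ cells of all tissues, and the *mpeg1* promoter that drives the reporter is also active in metaphocytes, the macrophage-like skin cells of ectodermal origin. In such bulk libraries fewer cells of a type and less RNA per cell cannot be told apart.

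Csf1r is the receptor for the ligands Csf1 and Il34 and carries signals for survival, proliferation and differentiation in the macrophage lineage. Zebrafish have 2 copies of the gene, *csf1ra* and *csf1rb*, and fish lacking both are known to lack microglia. The circadian clock, which matters below, is built of activators such as Bmal and Ror proteins and of repressors such as Per, Cry and Rev-erb proteins, and in zebrafish most tissues hold a clock that light can set directly.

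Libraries of *csf1rDM* fish held 10110020, 106374902 and 13029138 counts at 33 dpf and 7688093, 30478713 and 10633348 counts at 1.5 mpf. After thinning all libraries to the smallest, 13764 to 15073 genes had a count in the younger fish and 14858 to 15742 in the older fish. Levels below are CPM, counts scaled to library size by the TMM method, in fish 1, 2 and 3 of each age. *csf1ra* was at 0, 33.9 and 0.0770 CPM at 33 dpf and at 0, 0.0346 and 0 CPM at 1.5 mpf, against 115 to 206 CPM in the 6 controls. *csf1rb* was at 44.9, 5.75 and 5.47 CPM in the younger and 45.4, 32.7 and 35.5 CPM in the older *csf1rDM* fish, against 113 to 405 CPM in controls. Fish 2 at 33 dpf, the deepest library, thus stood apart in *csf1ra*, at a level below every control. It also held the scavenger receptor *marco* at 74.5 CPM, the complement gene *c1qb* at 122 CPM and a list of germ cell genes at 673 CPM in sum, against 1.82 to 42.0 CPM in the other 5 *csf1rDM* fish, and its part in the results is given by leaving it out. The genotype and purity of this library cannot be told from the counts, and it is called a *csf1rDM* fish here by its label only. The main *mpeg1* gene (listed as *MPEG1*) was at 8571, 6015 and 7471 CPM in the younger and 7194, 7920 and 4174 CPM in the older fish, with an adjusted p of 0.987, so the gene behind the sort was high in all 6 fish.

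The main test called few genes with age, several regulators among them. Of 17640 genes tested by edgeR's quasi-likelihood test on all 15 fish, 38 had an adjusted p under 0.05 (0.215%), of which 28 were higher at 1.5 mpf (0.159%) and 10 lower (0.0567%). The myeloid transcription factors *CEBPA* and *CEBPB*, the clock repressor *nr1d2a* and the chemokine receptor *CXCR4* rose, and the cytokine receptor subunit *il10rb* and the clock activator *rorab* fell. In all 38 genes the 3 fish of one age lay apart from the 3 of the other, and over all genes tested this was so for 7.14% in the upward and 6.39% in the downward direction. At an unadjusted p under 0.05, 1181 genes were higher (6.70%) and 743 lower (4.21%), and 10.9% of all genes fell on one side or the other.

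The calls rest on an estimate of variability shared by all 5 groups. A fit of the 6 *csf1rDM* fish alone called 0 of 13791 genes, with a smallest adjusted p of 0.0756 and 879 genes at an unadjusted p under 0.05. DESeq2 on all 15 fish instead called 1040 of 17640 genes, 610 higher and 430 lower, among them all 38. The DESeq2 counts given for gene lists below stand beside these numbers over all genes. Without fish 2 at 33 dpf, 61 genes were called, 51 higher and 10 lower, and 25 of these were among the 38. The share of the squared distance between the 6 libraries that lay between ages was 24.1%, with an exact permutation p of 0.1, the smallest that 10 distinct splits of 3 against 3 fish allow. Any split of so few fish gives a share well above 0, so 24.1% is not the part that age accounts for. Pairs of fish of different age lay 399 ± 11.7 apart (SD over 9 pairs, Euclidean distance on log2 CPM) and pairs of 33 dpf fish 399.9 ± 12.2 apart (SD over 3 pairs), so the younger fish lay about as far from each other as from the older ones. The older fish lay closer together, at 363.7 ± 13.9 (SD over 3 pairs).

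The 28 genes that were higher at 1.5 mpf fell into 2 kinds. In 14 the younger fish had a mean of at least 1 CPM, and these rose by 1.29 to 2.60 on the log2 scale, with a median of 1.90. In the other 14 the younger fish had a mean under 1 CPM, with 0 counts in all 3 fish for 6 genes, and the older fish had means of 3.01 to 50.9 CPM.

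Among the genes measured at both ages were 2 myeloid transcription factors. *CEBPA*, which encodes a factor needed for granulocyte and macrophage differentiation in vertebrates, was at 28.2, 15.5 and 15.8 CPM in the younger and 106.3, 89.0 and 144 CPM in the older fish. Every older fish was thus above every younger one, and the log2 change was 2.51 ± 0.25 (SE, adjusted p = 0.00112, edgeR). *CEBPB*, a relative induced in activated macrophages, was at 66.8, 103 and 57.3 CPM in the younger and 303, 595 and 388 CPM in the older fish, a change of 2.5 ± 0.27 (SE, adjusted p = 0.00205, edgeR). Both genes remained far below their level in controls of the same age, where *CEBPA* was at 1420 to 1484 CPM and *CEBPB* at 3539 to 3914 CPM. Another factor of the lineage, *spi1a* (a Pu.1 gene), was at 1621 to 1840 CPM in the younger and 1635 to 2180 CPM in the older fish, with an adjusted p of 0.645, so not every regulator of myeloid cells was called.

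Chemokine receptors moved in both directions. *CXCR4*, the receptor for Cxcl12 (ENSDARG00000041959, 1 of 2 genes with this symbol), was at 1854, 1595 and 804 CPM in the younger and 4844, 4660 and 4959 CPM in the older fish, a change of 1.77 ± 0.23 (SE, adjusted p = 0.00534, edgeR). The 3 older fish lay close together, while fish 3 at 33 dpf was lower than the other younger fish. A receptor gene listed as *CXCR3* (ENSDARG00000007358) had no count in any younger fish and was at 18.4, 8.89 and 10.1 CPM in the older fish, at least 41.1-fold higher when the younger level is set at 3 counts in the shallowest younger library (adjusted p = 0.00799, edgeR). Its relative *cxcr3.2*, a receptor of zebrafish macrophages, fell from 517, 332 and 366 CPM to 180, 172 and 175 CPM, by 1.2 on the log2 scale (SE 0.20, adjusted p = 0.0306, edgeR). Of 35 genes of the chemokine list tested, edgeR called 2 higher and 1 lower and DESeq2 called 5 higher and 3 lower, and their median log2 change was 0.53 beside 0 for all genes, or 1.16 without fish 2 at 33 dpf. The share at an unadjusted p under 0.05 was 31.4%, beside 10.9% of all genes. The summed level of the list was 3455 to 4891 CPM in the younger and 9357 to 9609 CPM in the older fish, led in the older fish by *CXCR4* and *CCR9*, a receptor of thymus and gut homing cells at 708 to 854 CPM against 2133 to 2349 CPM (adjusted p = 0.0849).

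The third set of called genes belonged to the circadian clock. *nr1d2a*, which encodes a Rev-erb beta repressor, was at 196, 118 and 109 CPM in the younger and 722, 769 and 506 CPM in the older fish, a change of 2.24 ± 0.25 (SE, adjusted p = 0.00233, edgeR). *rorab*, which encodes a Ror alpha activator that binds the same DNA elements as Rev-erb proteins, ran the other way, from 352, 195 and 343 CPM to 64.9, 69.5 and 44.8 CPM, and fell by 2.31 on the log2 scale (SE 0.35, adjusted p = 0.0141, edgeR). *tefa*, which encodes a PAR bZIP factor of the clock output, was at 780, 585 and 843 CPM in the younger and 337, 369 and 358 CPM in the older fish and fell by 1.05 (SE 0.19, adjusted p = 0.0385, edgeR). For all 3 genes no older fish lay within the range of the younger fish. A relative of *nr1d2a*, listed as *NR1D2*, ran the other way, at 370, 322 and 363 CPM against 235, 256 and 219 CPM (adjusted p = 0.297, edgeR). The repressor *cry3a* overlapped between ages, at 187 to 375 CPM against 112 to 258 CPM (adjusted p = 0.469, edgeR). Outside the rule by which genes were named, the light-responsive repressor *PER2* was at 255, 143 and 128 CPM against 11.6, 34.1 and 2.83 CPM (log2 -3.43, adjusted p = 0.0675, edgeR). The Bmal gene *bmal2*, also outside that rule, was at 7.16, 15.1 and 10.24 CPM against 0 in the 3 older fish (adjusted p = 0.200, edgeR). Of 39 clock genes tested, edgeR called 1 higher and 2 lower and DESeq2 called 1 higher and 6 lower, 4 were higher and 7 lower at an unadjusted p under 0.05, and the median log2 change was -0.06. The unadjusted share was 28.2%, beside 10.9% of all genes. The hour of sampling is not given in the sources used here, so age and time of day cannot be told apart for these genes.

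**Figure D1:**
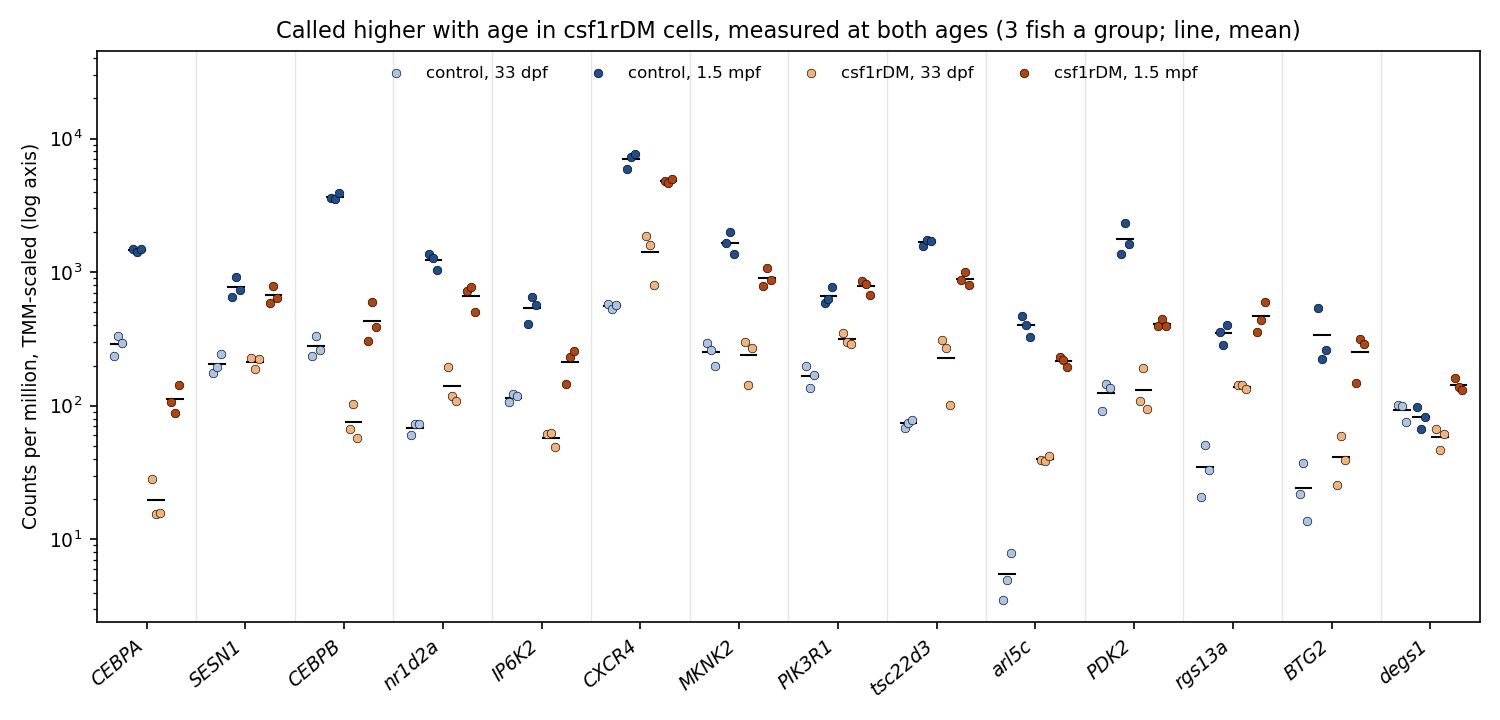
Level in each fish (TMM-scaled CPM, log axis) of the 14 genes called higher at 1.5 mpf in *csf1rDM* cells and measured at both ages, with controls beside them; points are single fish, lines are means of 3. All older *csf1rDM* fish lie above all younger ones, from *CEBPA* (15.5 to 28.2 against 89.0 to 144 CPM) to *degs1*, and *degs1* alone shows no such step in controls.

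Of the other 10 genes of this kind, 6 were covered by the naming rule. *SESN1*, a sestrin induced by stress that restrains mTORC1, rose from 226, 190 and 223 CPM to 588, 790 and 635 CPM (log2 1.66 ± 0.18, SE, adjusted p = 0.00184, edgeR). *PIK3R1*, a regulatory subunit of PI 3-kinase, rose from 352, 302 and 292 CPM to 862, 821 and 672 CPM (log2 1.32 ± 0.18, SE, adjusted p = 0.00649, edgeR). *MKNK2*, a kinase of the translation factor eIF4E, rose from 301, 144 and 269 CPM to 781, 1079 and 869 CPM (log2 1.93 ± 0.26, SE, adjusted p = 0.00584, edgeR). These 3 genes were thus between 2.49-fold and 3.82-fold higher in the mean of the older fish, with no overlap between ages. *IP6K2*, which encodes an inositol hexakisphosphate kinase, rose from 61.3, 62.2 and 49.4 CPM to 146, 231 and 256 CPM (log2 1.87 ± 0.24, SE, adjusted p = 0.00417, edgeR). *arl5c*, an Arf-like small GTPase, rose from 39.4, 38.9 and 41.9 CPM to 230, 222 and 194 CPM (log2 2.42 ± 0.39, SE, adjusted p = 0.0254, edgeR). *BTG2*, an antiproliferative early response gene, rose from 25.7, 59.0 and 39.28 CPM to 148, 316 and 291 CPM (log2 2.60 ± 0.47, SE, adjusted p = 0.0440, edgeR). The other 4 genes of this kind, named after their values were seen, were *tsc22d3*, the glucocorticoid-induced leucine zipper gene (102 to 309 against 807 to 1000 CPM), *PDK2*, a pyruvate dehydrogenase kinase (94.0 to 191 against 393 to 448 CPM), *rgs13a*, a regulator of G protein signalling (133 to 142 against 358 to 602 CPM), and *degs1*, a sphingolipid desaturase (46.8 to 67.4 against 131 to 160 CPM).

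These calls differed in how they held when single fish were left out. Each such fit also changed the filter, so that 18921 to 19203 genes were tested instead of 17640. Among the 27 called genes that the naming rule covered, 15 were called after leaving out each of the 6 *csf1rDM* fish in turn, namely *CEBPA*, *CEBPB*, *SESN1*, *nr1d2a*, *IP6K2*, *CXCR4*, *MKNK2*, *PIK3R1*, *tpte*, *sec14l8*, *zbtb21*, *TBCCD1*, *mat2al*, *CXCR3* and *il10rb*. *BTG2* was not called without fish 1 or 3 at 33 dpf (adjusted p = 0.132 and 0.121, edgeR) or fish 2 or 3 at 1.5 mpf (0.113 and 0.114). *arl5c* was not called without fish 1, 2 or 3 at 33 dpf (0.0825, 0.0652 and 0.0623) or fish 2 at 1.5 mpf (0.0520). *rorab* was not called without fish 3 at 1.5 mpf (0.0566), and *jam2a*, described next, without fish 1 or 2 at 33 dpf (0.0586 and 0.0547).

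The second kind of higher genes was close to absent at 33 dpf. *tpte*, which encodes a transmembrane phosphatase, had no count in any of the 3 younger fish, among them the library of 106374902 counts, and was at 11.6, 20.4 and 32.1 CPM in the older fish. Against 3 counts in the shallowest younger library the mean of the older fish was at least 70.7-fold higher, and the gene had the smallest adjusted p of all genes (0.000290, edgeR). *mat2al*, a relative of the gene for methionine adenosyltransferase 2, had no count in the younger and 8.38, 17.9 and 7.52 CPM in the older fish, at least 37.2-fold higher (adjusted p = 0.00584, edgeR). *sec14l8*, a Sec14-like gene, had 0, 1 and 1 counts in the younger fish and was at 21.5, 12.4 and 22.9 CPM in the older fish (adjusted p = 0.00286, edgeR). These 3 genes were well measured in controls of both ages, at 31.2 to 142 CPM for *tpte*, 6.29 to 35.8 CPM for *mat2al* and 7.78 to 84.3 CPM for *sec14l8*.

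The zinc finger gene *zbtb21* had 0, 2 and 0 counts in the younger fish and was at 42.2, 41.4 and 47.1 CPM in the older fish (adjusted p = 0.00417, edgeR). *TBCCD1*, a relative of the tubulin cofactor C gene, had 0, 2 and 1 counts in the younger fish and was at 19.1, 32.1 and 14.9 CPM in the older fish (adjusted p = 0.00534, edgeR). *jam2a*, a junctional adhesion molecule, had 0, 1 and 0 counts in the younger fish and was at 14.2, 6.37 and 5.37 CPM in the older fish (adjusted p = 0.0141, edgeR). In each of these genes the older fish thus reached levels of the kind seen in controls, while the younger fish had at most 2 counts. The other called genes of this kind, with *CXCR3* already given, were *pvalb7* (a parvalbumin), *ehbp1l1a*, *jac2*, *FAM168A*, *PLK2* (a polo-like kinase) and 2 genes without a symbol, ENSDARG00000108060 and ENSDARG00000102916, all named after their values were seen. Of the 14 genes, 13 had a mean of at least 5 CPM in controls at 33 dpf and all 14 had one in controls at 1.5 mpf. The exception at 33 dpf was *PLK2*, at 0.154, 0.165 and 5.09 CPM in the younger and 66.4, 74.1 and 17.2 CPM in the older controls. The filter and the estimate of variability drew on the controls, so genes measured steadily there could be called more readily. The share of all genes at such control levels was not determined, so these counts are a description only. In controls edgeR called 0 of the 14 with age, beside 1.17% of all genes, and 4 had an unadjusted p under 0.05.

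**Figure D2:**
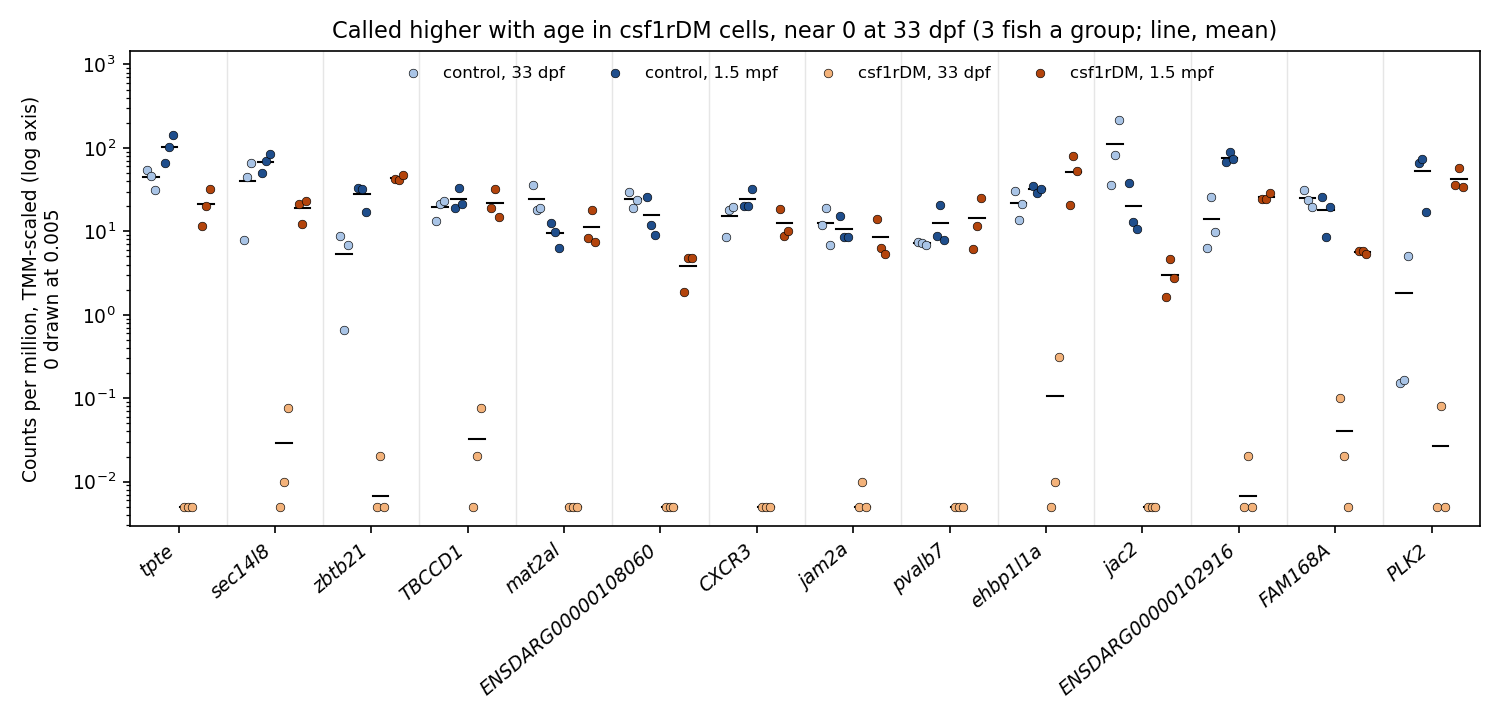
Level in each fish (TMM-scaled CPM, log axis, 0 drawn at 0.005) of the 14 genes called higher at 1.5 mpf in *csf1rDM* cells whose mean in the younger *csf1rDM* fish was under 1 CPM; points are single fish, lines are means of 3. The younger *csf1rDM* fish lie near the bottom. There 2 younger controls also lie for *PLK2* (0.154 and 0.165 CPM) and 1 is under 1 CPM for *zbtb21* (0.662 CPM). In controls of the same age 13 of the 14 genes are at a mean of 5 CPM or more. The controls took part in the filter and the estimate of variability, so this is a description only.

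Such steps from 0 were not confined to called genes. In all, 68 genes had 0 counts in the 3 younger fish and at least 10 counts in each of the 3 older fish (0.385% of genes tested), with means of 2.32 to 30.8 CPM and a median of 8.97 CPM, and 6 of them were called. In the other direction, 34 genes had 0 counts in the 3 older fish and at least 10 in each younger fish (0.193%), with a median of 7.34 CPM, and 2 of them were called. Of the 68 genes, 17 had counts in all 6 controls and 15 had none in the younger controls. A gene could also be present in some fish of a group and near 0 in others. An example at a high level, picked as such after its values were seen, is the MHC class II gene *mhc2dga*, at 5308 CPM in 1 older fish and at 0.519 and 0.293 CPM in the other 2, beside 3358 to 4347 CPM in the younger fish.

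The genes that were lower at 1.5 mpf were fewer, at 10. *il10rb*, the shared receptor subunit of the interleukin 10 family, fell from 431, 412 and 464 CPM to 132, 136 and 165 CPM, by 1.59 on the log2 scale (SE 0.20, adjusted p = 0.00417, edgeR). *borcs6*, a subunit of the BORC complex that positions lysosomes, fell from 126, 115 and 178 CPM to 31.3, 34.3 and 27.1 CPM, by 2.17 (SE 0.37, adjusted p = 0.0306, edgeR). *cdc25b*, a phosphatase that activates cyclin-dependent kinases at entry into mitosis, fell from 136, 135 and 145 CPM to 54.6, 66.2 and 71.8 CPM, by 1.11 (SE 0.19, adjusted p = 0.0306, edgeR). *fxyd5*, which encodes a regulator of the sodium pump, fell from 642, 616 and 605 CPM to 250, 312 and 273 CPM, by 1.16 (SE 0.20, adjusted p = 0.0381, edgeR). The membrane protein gene *tmem179ba* fell from 256, 257 and 272 CPM to 145, 114 and 110 CPM, by 1.09 (SE 0.20, adjusted p = 0.0476, edgeR). In these genes the fish of each age lay close together, and the highest older fish was below the lowest younger fish.

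In the last pair the older fish had no count at all. *C2CD4C* was at 44.0, 91.5 and 32.3 CPM in the younger fish and at 0 in the older fish, at least 138-fold lower against 3 counts in the shallowest older library (adjusted p = 0.0451, edgeR). *TXNL4B*, a thioredoxin-like gene, was at 20.1, 6.50 and 11.8 CPM in the younger fish and at 0 in the older fish, at least 31.5-fold lower (adjusted p = 0.0451, edgeR). The other 8 genes, with *rorab*, *cxcr3.2* and *tefa*, fell by 1.05 to 2.31 on the log2 scale, with a median of 1.18. Of the 10 lower genes, 1 was called after every leave-out, against 14 of the 17 higher genes that the naming rule covered. The rule took all 10 lower genes but, of the 28 higher genes, only those with the smallest adjusted p and called list members. The directions can therefore not be compared in how well their calls held. Apart from *il10rb* and *rorab*, each lower gene lost its call after at least 4 of the 6 leave-outs, with adjusted p up to 0.157 (edgeR). Each of the 6 fish cost some gene its call. The signs stayed the same, which genes without overlap between ages could hardly fail to do.

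**Figure D3:**
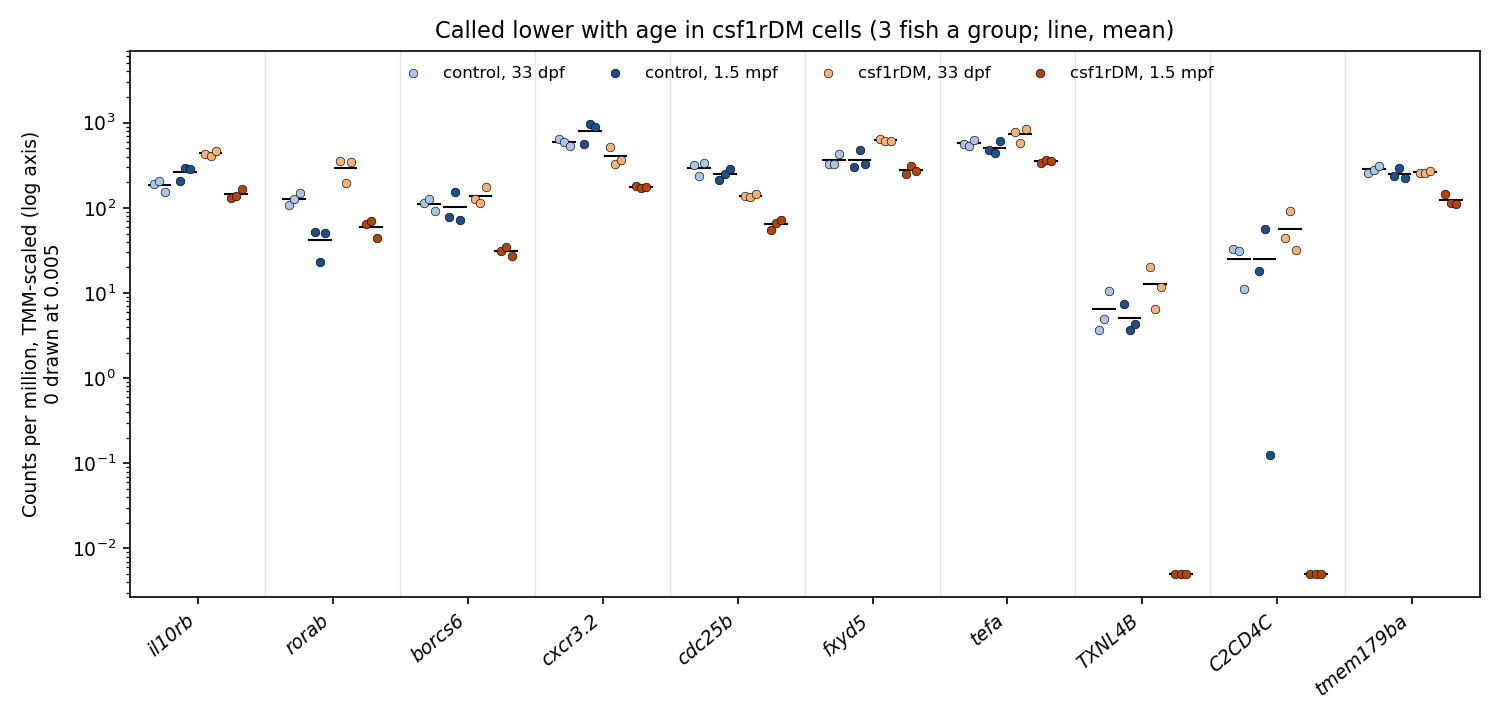
Level in each fish (TMM-scaled CPM, log axis, 0 drawn at 0.005) of the 10 genes called lower at 1.5 mpf in *csf1rDM* cells, with controls beside them; points are single fish, lines are means of 3. All older *csf1rDM* fish lie below all younger ones, with *TXNL4B* and *C2CD4C* at 0 in the 3 older fish, and *rorab* is the gene that is also lower in older controls by the test.

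Lists of genes that mark the sorted cells were followed next. Of 24 macrophage genes tested, edgeR called *CEBPA* and *CEBPB* and DESeq2 called 2 higher and 2 lower, 3 were higher and 1 lower at an unadjusted p under 0.05, and the median log2 change was -0.31, or 0.00 without fish 2 at 33 dpf. The summed level of the list was 5278 to 6238 CPM in the younger and 6303 to 7081 CPM in the older *csf1rDM* fish, which did not overlap, and 7464 to 9883 CPM and 14970 to 18430 CPM in the controls. The lysosomal gene *cd68* was at 769, 497 and 583 CPM in the younger and 658, 801 and 555 CPM in the older fish. Of 33 genes of the metaphocyte and epithelial adhesion list, 0 were called by edgeR and 1 by DESeq2, 1 was higher at an unadjusted p under 0.05, and the median log2 change was 0.13. The adhesion genes *epcam* (288 to 626 against 434 to 805 CPM) and *cdh1*, E-cadherin (350 to 507 against 297 to 501 CPM), overlapped between ages. The sum of the list was 4062 to 6168 CPM at 33 dpf and 4229 to 6331 CPM at 1.5 mpf in *csf1rDM* fish, above the 1160 to 2592 CPM of the 6 controls at both ages. Of 10 complement C1q and microglia genes 0 were called by edgeR or DESeq2 and 0 had an unadjusted p under 0.05, with a median of -0.13. Of 32 phagocytosis genes edgeR called 0 and DESeq2 called 2 higher and 2 lower, and 2 were higher and 2 lower at an unadjusted p under 0.05, with a median of -0.23. Of 36 keratinocyte genes edgeR called 0 and DESeq2 called 1 lower, and 2 were lower at an unadjusted p under 0.05, with a median of -0.16. The unadjusted shares were 16.7% of macrophage and 12.5% of phagocytosis genes, beside 10.9% of all genes. They were 3.03% of metaphocyte and epithelial adhesion and 5.56% of keratinocyte genes.

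Antigen presentation genes were high at both ages. The invariant chain gene *cd74a*, which accompanies MHC class II, was at 19539, 13619 and 14397 CPM in the younger and 19313, 15861 and 20030 CPM in the older *csf1rDM* fish, so the ages overlapped. In controls the same gene was called higher with age, at 4592 to 6837 CPM against 12927 to 18415 CPM (adjusted p = 0.00174, edgeR). The test of whether the age change of *cd74a* differed between genotypes did not pass (difference in log2 change -1.29, adjusted p = 0.0956, edgeR). Of 10 MHC class II genes 0 were called in *csf1rDM* cells by edgeR or DESeq2 and 1 was higher at an unadjusted p under 0.05, with a median log2 change of 0.27. Of 20 MHC class I genes 0 were called by edgeR and 2 by DESeq2, 5 were higher at an unadjusted p under 0.05, 9 were higher without overlap, and the median was 0.45. The unadjusted share was 25%, beside 10.9% of all genes, and 7.14% of all genes were higher without overlap. The beta 2 microglobulin gene *b2ml* was nearest to the threshold, at 876, 656 and 817 CPM against 1414, 1435 and 1394 CPM (adjusted p = 0.0659, edgeR).

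Chaperone genes had a median above that of all genes. Of 34 genes tested, edgeR called 0 and DESeq2 called 7 higher and 1 lower, 11 were higher and 1 lower at an unadjusted p under 0.05, 15 were higher without overlap, and the median log2 change was 0.88 (1.28 without fish 2 at 33 dpf). The unadjusted share was 35.3%, beside 10.9% of all genes, and 7.14% of all genes were higher without overlap. *XBP1*, the transcription factor of the unfolded protein response, was at 420, 553 and 364 CPM in the younger and 776, 730 and 797 CPM in the older fish (adjusted p = 0.0588). *HSPA5*, the chaperone BiP of the endoplasmic reticulum, was given outside the naming rule. It was at 175, 481 and 92.3 CPM against 946, 948 and 472 CPM, so that the highest younger fish lay above the lowest older one (adjusted p = 0.301, edgeR). *HSPA8*, a constitutive cytosolic chaperone, was at 2272 to 2667 CPM against 1943 to 2328 CPM, so the list did not move as a whole. In controls the median of the list was -0.24.

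Of 39 immediate early genes, which respond within minutes to stimuli such as tissue dissociation, edgeR called 1 (*BTG2*) and DESeq2 called 6 higher, 8 were higher and 1 lower at an unadjusted p under 0.05, and the median was 0.57, or 1.14 without fish 2 at 33 dpf. The unadjusted share was 23.1%, beside 10.9% of all genes. *DUSP1*, a phosphatase of MAP kinases, was at 206, 313 and 210 CPM against 491, 859 and 1085 CPM (adjusted p = 0.0521, edgeR). *JUNB*, given outside the naming rule, was at 192, 165 and 92.1 CPM against 292, 600 and 450 CPM (adjusted p = 0.0583, edgeR). Both genes were higher in every older fish and just missed the threshold. The control median of the list was 1.74, with 7 genes called higher, and the part of dissociation in these levels was not tested.

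Among 41 proliferation genes 0 were called by edgeR and 1 by DESeq2, and the median log2 change was -0.54, with 3 genes higher and 5 lower at an unadjusted p under 0.05. The unadjusted share was 19.5%, beside 10.9% of all genes. The summed level was 3482 to 3707 CPM in the younger and 3021 to 3123 CPM in the older fish. *mki67*, the gene for the proliferation antigen Ki-67, was at 189, 108 and 210 CPM against 180, 138 and 253 CPM and overlapped between ages. Genes of the replicative helicase, given outside the naming rule, were on both sides, with *MCM2* at 53.2, 45.1 and 158 CPM against 141, 319 and 197 CPM and *MCM7* at 111, 115 and 131 CPM against 42.3, 99.3 and 46.7 CPM, and neither was called. In controls the median was -0.82 and *PCNA*, the replication clamp, was called lower (586 to 888 against 195 to 340 CPM, adjusted p = 0.00641, edgeR). In *csf1rDM* cells *PCNA* was at 224 to 366 CPM against 232 to 329 CPM. The test of whether the age change differed between genotypes called neither *PCNA* nor any other gene of the list.

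Markers of other cells that the gate could hold were also followed. The T and NK cell list was at 2352 to 2680 CPM in sum in the younger and 4409 to 4519 CPM in the older *csf1rDM* fish, with 0 of 32 genes called by edgeR, 3 by DESeq2, 6 higher at an unadjusted p under 0.05 and a median of 0.83. Its highest members in the older fish were *CCR9* and *ptprc*, which other leukocytes express too, and *CCR9* is also in the chemokine list. The neutrophil list was at 1548 to 1956 CPM and 1854 to 1997 CPM, with 0 of 17 genes called by edgeR, 2 by DESeq2, and 3 higher and 1 lower at an unadjusted p under 0.05. The B cell list, whose cells can express *mpeg1* too, was at 446 to 752 CPM and 637 to 876 CPM, with 0 of 20 genes called by edgeR, 3 higher and 2 lower by DESeq2, 4 higher and 2 lower at an unadjusted p under 0.05, and a median of 0.99. Unadjusted shares were 18.8% of T and NK cell, 23.5% of neutrophil and 30% of B cell genes, beside 10.9% of all genes. The medians of 3 lists at lower levels were 2.05 for 18 endothelial genes (37.8 to 80.1 against 70.35 to 111 CPM in sum), 1.72 for 14 neuron and glia genes (20.6 to 72.2 against 75.6 to 321 CPM) and 1.31 for 10 thrombocyte genes (53.6 to 103 against 87.0 to 212 CPM). edgeR called 0 genes of these 3 lists, and DESeq2 called 2 higher and 1 lower, 2 higher, and 2 higher and 2 lower in that order. At an unadjusted p under 0.05 there were 5 higher and 2 lower endothelial, 4 higher neuronal, and 3 higher and 3 lower thrombocyte genes, shares of 38.9%, 28.6% and 60.0% beside 10.9% of all genes. The share depended on level, since a filter of at least 10 counts in 3 *csf1rDM* libraries left 14105 genes, 1044 of them at an unadjusted p under 0.05. The share among genes at levels as low as in these 3 lists was not determined. These medians hung on single fish, since leaving out 1 *csf1rDM* fish at a time gave 0.65 to 2.06 for B cell genes (2.06 without fish 2 at 33 dpf), 0.64 to 4.20 for endothelial genes (without fish 1 at 1.5 mpf and fish 3 at 33 dpf), 0.19 to 6.49 for neuron and glia genes (without fish 3 at 1.5 mpf and fish 2 at 33 dpf) and 0.18 to 2.81 for thrombocyte genes (without fish 3 at 1.5 mpf and fish 3 at 33 dpf). The fibroblast, bone and cartilage sum was 376 to 1852 CPM against 850 to 1356 CPM, the enterocyte sum 355 to 658 CPM against 242 to 346 CPM, the photoreceptor and lens sum 78.0 to 112 CPM against 21.7 to 480 CPM and the erythroid sum 118 to 149 CPM against 122 to 199.8 CPM. The hepatocyte, pancreatic acinar and muscle sums were at most 147 CPM in all 6 fish. High medians were also found for 19 muscle genes (1.81) and 17 erythroid genes (1.41). At an unadjusted p under 0.05, 4 muscle genes and 1 erythroid gene were higher, shares of 21.1% and 5.88% beside 10.9% of all genes. The part of other cells in the called changes was not tested.

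**Figure D4:**
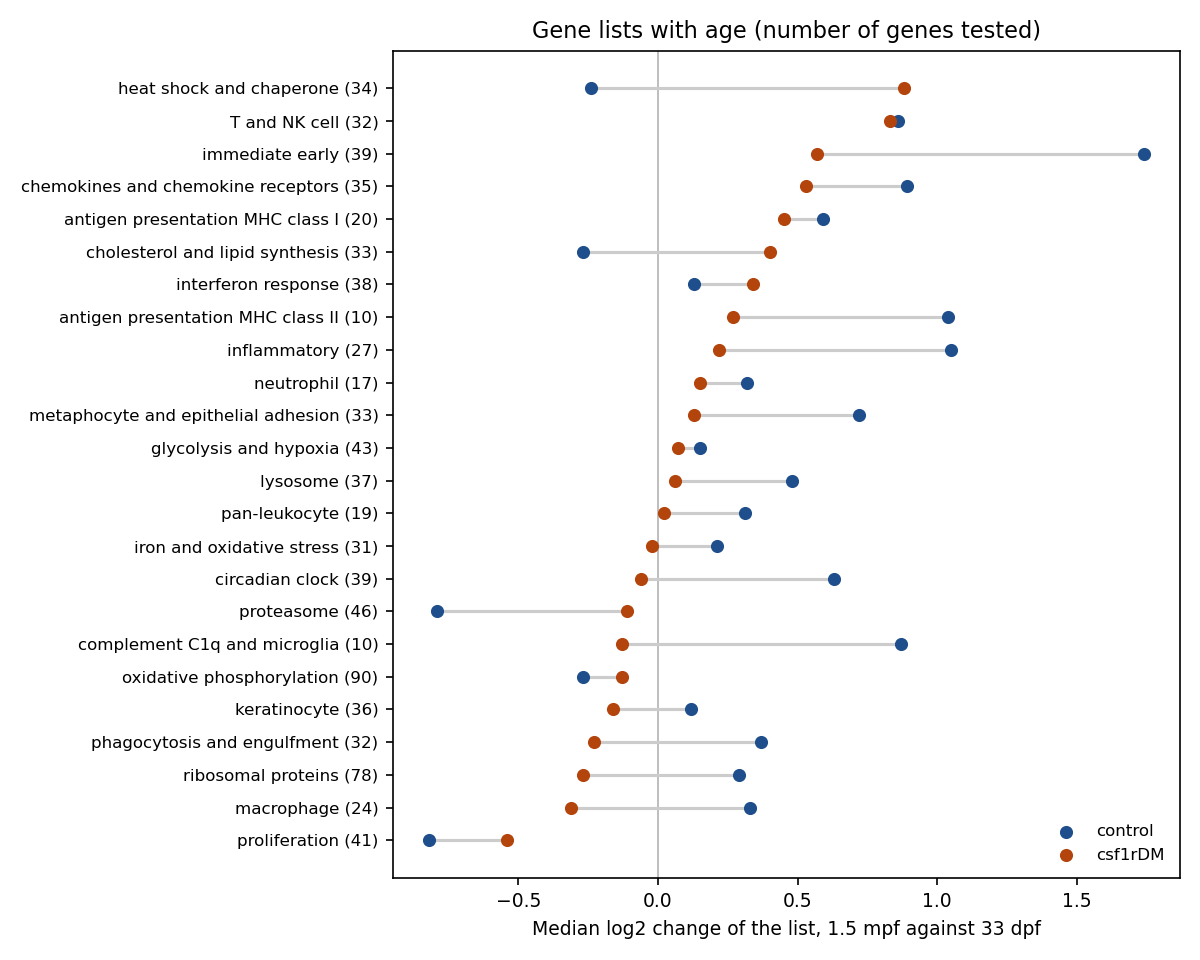
Median log2 change with age (1.5 mpf against 33 dpf) of 24 of the 41 gene lists, with the number of genes tested in brackets, in *csf1rDM* (orange) and control cells (blue); the vertical line marks 0, the median of all genes in *csf1rDM* cells. Among the lists drawn, the *csf1rDM* medians run from -0.54 for proliferation to 0.88 for chaperones and the largest control median is 1.74, for immediate early genes, whereas over all 41 lists, with those of other tissues not drawn, they run from -6.69 (germ cell) to 2.05 (endothelium) and the largest control median is 9.19 (hepatocyte). The germ cell list (7 genes tested) is at 673 CPM in sum in fish 2 at 33 dpf and at 1.82 to 42.0 CPM in the other *csf1rDM* fish. The hepatocyte sum is 78.1 to 98.4 CPM in younger controls and spreads from 402 to 4157 CPM in older controls.

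The same 12 control and *csf1rDM* fish allow the age changes to be set side by side, since the comparisons share no fish. After thinning, 15758 to 16680 genes had a count in the younger controls. In the older controls fish 1 stood apart, at 19870 genes against 14459 in fish 2 and 14358 in fish 3. Without that fish 1 the interaction was called for 34 genes, and the control age change alone was not refitted. In controls 207 genes were called with age (1.17%), 131 higher (0.743%) and 76 lower (0.431%). Of the 131, 97 were also positive in *csf1rDM* cells (74.0%) and 13 were called higher there (9.92% of the 131, 46.4% of the 28). Of the 76, 42 were also negative (55.3%), and 1, *rorab*, was called lower. The genes called in both were thus nearly all higher genes. The 131 genes were selected on the control change, so the sizes are a description only: the median log2 change of the 131 genes was 1.91 in controls and 0.519 in *csf1rDM* cells.

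Of the 14 higher genes measured at both ages, 13 were called higher in controls and 12 had the larger log2 change there. *CEBPB* changed by 3.73 ± 0.29 (SE) in controls against 2.5 ± 0.27 in *csf1rDM* cells, and *CXCR4* by 3.64 ± 0.25 against 1.77 ± 0.23. *CEBPA* changed by 2.35 ± 0.24 against 2.51 ± 0.25, and *SESN1* by 1.91 ± 0.18 against 1.66 ± 0.18. The interaction of age with genotype, which tests the difference itself, gave -1.88 for *CXCR4* (adjusted p = 0.0387), -1.92 for *nr1d2a* (0.0455) and -3.77 for *arl5c* (0.0282), whereas *CEBPB* (-1.23, 0.255) and *CEBPA* (0.17, 1.00) did not pass. The interaction was also called for *tsc22d3* (-2.53, adjusted p = 0.0349, edgeR) and *PDK2* (-2.18, 0.0428), and so for 5 of the 14 genes. For *arl5c* the younger fish were at 38.9 to 41.9 CPM in *csf1rDM* and 3.54 to 7.96 CPM in control cells, and the older fish at 194 to 230 CPM and 326 to 472 CPM.

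**Figure D5:**
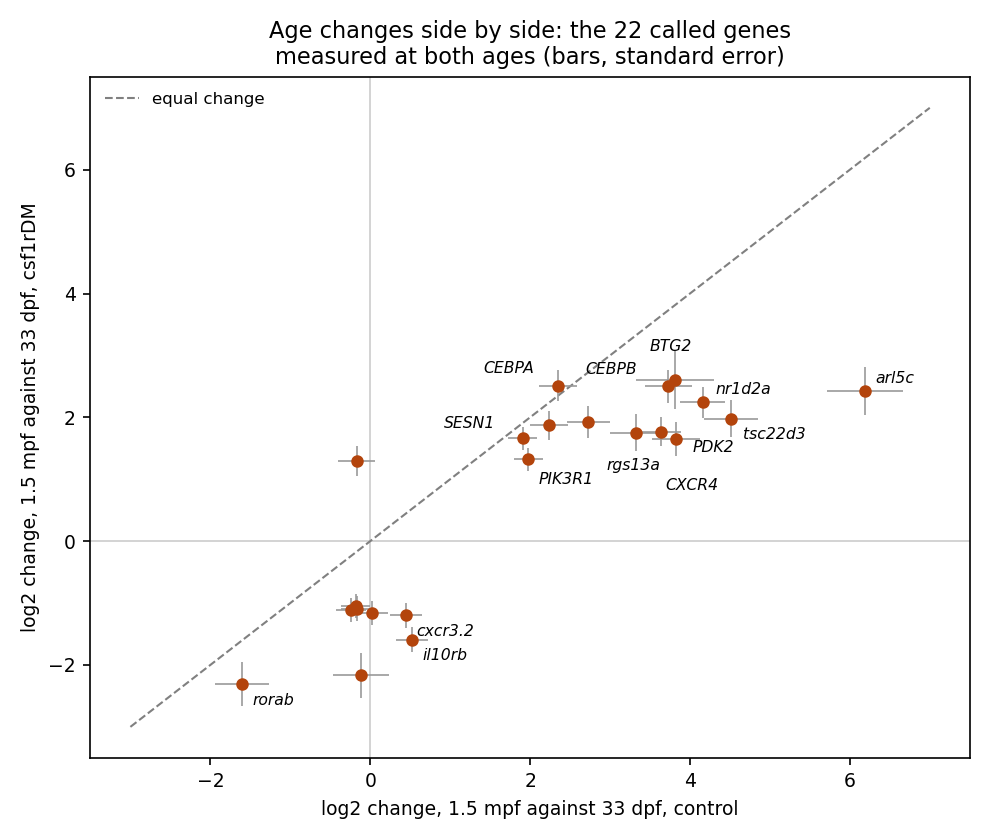
Log2 change with age in control (x axis) and *csf1rDM* cells (y axis) of the 22 called genes measured at both ages. Bars are standard errors derived from the test statistic, and the dashed line marks equal change. *CEBPA* and *SESN1* lie near the line, and *il10rb* and *cxcr3.2* are negative in *csf1rDM* and positive in control cells. Among the higher genes, *CXCR4*, *nr1d2a*, *arl5c*, *tsc22d3* and *PDK2* lie below the line with a called interaction.

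Over all genes the interaction was called for 42 (0.238%), 20 more positive in *csf1rDM* cells (0.113%) and 22 more negative (0.125%). Of these, 17 were among the 38 age genes of *csf1rDM* cells. *il10rb* fell in *csf1rDM* cells and was at 152 to 207 CPM in younger and 204 to 297 CPM in older controls (interaction -2.11, adjusted p = 0.0277), and *cxcr3.2* was at 530 to 651 CPM and 564 to 953 CPM in controls (-1.65, 0.0426). *DNAJB11*, a chaperone of the endoplasmic reticulum, was at 83.0 to 146 CPM against 175 to 199 CPM in *csf1rDM* cells and at 182 to 262 CPM against 64.7 to 87.4 CPM in controls (2.27, 0.0282). *TP53BP1*, a DNA damage response gene, had means of 14.5 and 59.16 CPM in *csf1rDM* cells and 121 and 32.0 CPM in controls (3.95, 0.0282). In the opposite direction, *DDIT4*, an inhibitor of mTORC1, had means of 126 and 889 CPM in *csf1rDM* cells and 0.540 and 311 CPM in controls (-6.20, 0.0282), and *DUSP1* had means of 243 and 812 CPM and 50.4 and 1322 CPM (-2.97, 0.0282). For *DDIT4* and *DUSP1* both genotypes had the higher mean at 1.5 mpf, with the smaller log2 change in *csf1rDM* cells, where the younger fish already stood higher. *SLC3A2*, the heavy chain of amino acid transporters, had means of 333 and 214 CPM in *csf1rDM* cells and 131 and 598 CPM in controls (-2.83, 0.0282).

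The number of interaction calls hung on single fish and on scaling. It was 1 without fish 3 of the younger controls or fish 2 of the older controls, 2 without fish 3 of the older controls, 10 without fish 2 or fish 3 of the older *csf1rDM* fish, 20 without fish 1 of the younger controls and 25 without fish 1 of the older *csf1rDM* fish. The share of calls in the positive direction was 47.6% with TMM, 65.5% with RLE, 66.7% with upper-quartile scaling and 80.0% with library size only, so neither the number nor the balance of directions was stable.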

How the data were processed

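RNA of FAC-sorted *mpeg1*+ cells of 15 single fish was amplified by the authors with a kit for very low input and sequenced in paired reads of 75 bp. Reads were mapped with STAR to GRCz10. The submitters' processing notes also name CASAVA 1.8, cutadapt, STAR 2.5.4b, Cufflinks 2.2.1, HTSeq 0.11.0 and edgeR without giving their roles. The annotation release and the strand setting are not given in the sources used here, so overlapping and antisense genes cannot be told apart. What the authors deposited are raw read counts for 35117 Ensembl identifiers, of which 27000 (76.9%) have a symbol in the reference table used, 1 symbol sometimes standing for several paralogues. Symbols are printed as that table gives them, many in capitals. Coordinates and sequences were not analysed here.

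Starting from the counts, genes were kept by filterByExpr, scaled by TMM and fitted in edgeR 4.0.16 (R 4.3.3) with 1 coefficient per group over all 15 fish, robust quasi-likelihood dispersions and Benjamini-Hochberg adjustment at 0.05. The age difference in *csf1rDM* fish, that in controls, and their interaction were tested as contrasts. The test gives no standard error. Each SE printed is the absolute log2 change divided by the square root of the test's F statistic, so it adds nothing to the p-value. Distances were Euclidean on log2 CPM (prior count 2). The floor of a library was set at 3 counts, which covers counting error only. Named genes were the 15 smallest adjusted p-values in each direction among called genes with a symbol and no overlap, called members of the gene lists, the receptor and reporter genes, up to 4 leading members of each list described, and 5 genes in each direction of the interaction. Genes given outside this rule include *PER2*, *bmal2*, *HSPA5*, *JUNB*, *MCM2* and *MCM7*. The members, lists and rule were chosen with earlier results of these data known. Alternatives were other scalings, DESeq2 1.42.0, other filters, thinned counts, stricter thresholds, a replicate block, fewer fish and leaving out each fish. Leaving out control and *il34* fish for the age difference was added after the data were seen. Fish of the same number are separate fish, and their deviations from the group means correlated by 0.005, 0.002 and -0.006. Figures were drawn with matplotlib 3.10.9.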

Additional observations from a re-analysis of the deposited data

Results flagged for a closer look

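The age change differed between *csf1rDM* and control cells, by the interaction test of edgeR at an adjusted p under 0.05, for 42 genes. Only those that the naming rule covered are given here. Among the genes named, the difference in log2 change (*csf1rDM* minus control) was positive for *tpte* (10.36), *mat2al* (12.02), *CXCR3* (10.15), *jam2a* (9.61), *TBCCD1* (8.86), *zbtb21* (8.77) and *sec14l8* (8.61), 7 genes with at most 2 counts in any younger *csf1rDM* fish, for which the fitted size depends on the prior count and is no bound. It was also positive for *TP53BP1* (3.95) and *DNAJB11* (2.27). It was negative for *DDIT4* (-6.20), *arl5c* (-3.77), *DUSP1* (-2.97), *SLC3A2* (-2.83), *il10rb* (-2.11), *nr1d2a* (-1.92), *CXCR4* (-1.88), *cxcr3.2* (-1.65) and *krt8* (-1.38). The keratin gene *krt8* was at 1142 to 1563 CPM in younger and 915 to 1119 CPM in older *csf1rDM* fish. Groups of 3 fish are too small to test for a fish that lies far from the others.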

How the results depend on the processing

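The 38 age genes and 42 interaction genes became 1040 and 1002 with DESeq2 (which gave no adjusted p for 743 genes in the age comparison), 0 and 5 in fits of only the fish compared, and 16 and 1 at an adjusted p under 0.01 with a log2 change over 1. Upper-quartile scaling called 24 interaction genes. Other scalings, filters, thinning and fits without robust estimation called 36 to 48 age genes. Leaving out 1 fish gave 28 to 61 age genes and 1 to 46 interaction genes. The replicate numbers name different fish, and with a replicate block 22 age genes (all among the 38) and 2 interaction genes were called, or 0 and 0 with only the fish compared, where 736 and 1354 genes had an unadjusted p under 0.05. The share of distance between ages was 23.6% to 27.9% under the settings tried and 27% to 30.5% after leaving out 1 fish. The share that any split gives rises as the number of fish falls, so these ranges cannot be compared. The cause of the differences in calls was not tested. None of the 27 called genes that the naming rule covered changed sign under the scalings, DESeq2, thinning, the block or the loss of 1 *csf1rDM* fish. The ages did not overlap in any called gene, so a sign could hardly reverse and this is no measure of how well the calls held. The median of all genes stayed at 0 under all 3 other scalings. The filter also kept genes without a count in *csf1rDM* fish, so that median may not show a shift. List medians moved under these scalings by less than the SD between fish of the list's mean log2 level. Leaving out fish 2 at 33 dpf or fish 3 at 1.5 mpf each moved 10 of 41 list medians by more than that SD.

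The limits of the calls are 3 fish a group, large differences between fish of one age, and a floor of 0.0301 to 0.405 CPM for 3 counts in the *csf1rDM* libraries. The study's text does not say whether fish of both ages were dissociated, sorted and made into libraries together. Age and such handling can therefore not be told apart in either genotype.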
